A study of Homo sapiens with 36 samples.

Results

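The question addressed was whether the same siRNA against SCD acted differently in 2 human melanoma cell lines, IGR37 and 501mel. For each gene the change with siSCD#1 relative to its control siRNA was taken in IGR37 and in 501mel, and the change in 501mel was subtracted from that in IGR37. The comparison used 12 of the 36 libraries of the series, chosen by their labels alone: 3 of IGR37 with siSCD#1, 3 of IGR37 with siCTR_1, 3 of 501mel with siSCD#1 and 3 of 501mel with siCTR_1. Per the labels, both lines were grown in RPMI-1640 with 10% fetal bovine serum at 10% CO2, and siRNA was given at 20 nM for 48 h before RNA extraction. The other 24 libraries hold a second siRNA (siSCD#2 with siCTR) and the SCD inhibitor A939372 at 1 uM (with DMSO) in the same lines. Libraries were 3' end tags (QuantSeq Forward). Nothing in the labels says that replicates came from separate cultures, so p-values measure the spread between these libraries, which may be technical. Every group is 1 established tumour line, and with 1 siRNA the action on SCD and any action of that siRNA on other transcripts cannot be told apart.

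SCD (stearoyl-CoA desaturase) puts a double bond into saturated fatty acyl-CoAs and so makes the monounsaturated fatty acids of membranes and stored lipids. A shortage of them strains the membrane of the endoplasmic reticulum and can start the unfolded protein response, whose PERK arm acts through the transcription factor ATF4. MITF is the master transcription factor of melanocytes and of the differentiated state of melanoma. Many of its targets, such as TYR and PMEL, make or carry pigment. IGR37 and 501mel both carry this programme: all 10 melanocyte markers were in the table, with summed levels of 6400 to 6746 CPM in IGR37 siSCD#1 libraries, 6922 to 7266 CPM in IGR37 siCTR_1, 3314 to 3383 CPM in 501mel siSCD#1 and 4536 to 4723 CPM in 501mel siCTR_1. Of the markers of other cell types, 2 of 8 epithelial, 3 of 8 fibroblast and 3 of 9 blood and endothelial genes were in the table, and no set of these summed to more than 27.2 CPM in a library. Defining markers of other types that were not listed have no value here.

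Values are log2 CPM as deposited, where CPM scales a gene's tag count to the total of its library. A difference is the log2 change in IGR37 minus that in 501mel, so a positive difference means a change more upward, or less downward, in IGR37. A gene was called when its adjusted p was below 0.05 over all 13066 genes (limma, Benjamini-Hochberg), ± on a difference is its standard error, and ± on a level is the SD over 3 libraries.

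Before the results, 2 sets of libraries stand apart. The libraries held 2402788 to 7483010 gene reads, and the shallowest, IGR37 siSCD#1 replicate 2, also lay at the far end of the main axis along which replicates deviated from their group means (score -0.68, against 0.15 and 0.53 in the other 2 of its group). That axis held 43.3% of the deviation variance over 4930 genes above a level of 5. The 50 genes with the highest loading on it averaged 6.04, 5.01 and 6.40 log2 CPM in IGR37 siSCD#1, 6.46, 6.39 and 6.38 in IGR37 siCTR_1, 6.44, 6.35 and 6.42 in 501mel siSCD#1 and 5.12, 5.71 and 5.66 in 501mel siCTR_1. The 501mel siCTR_1 libraries were thus low as a group, and in the separately normalised table of the other 24 libraries the same 50 genes lay between 5.95 and 6.49. The spike-in RNAs also differed between siSCD#1 and siCTR_1 libraries in both lines alike (ERCC-00130 by -1.86 in IGR37 and by -1.92 in 501mel, ERCC-00002 by 0.89 and 0.85), so they scale neither single-line change, while over 30 spike-ins the median difference between lines was -0.03.

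**Figure D1:**
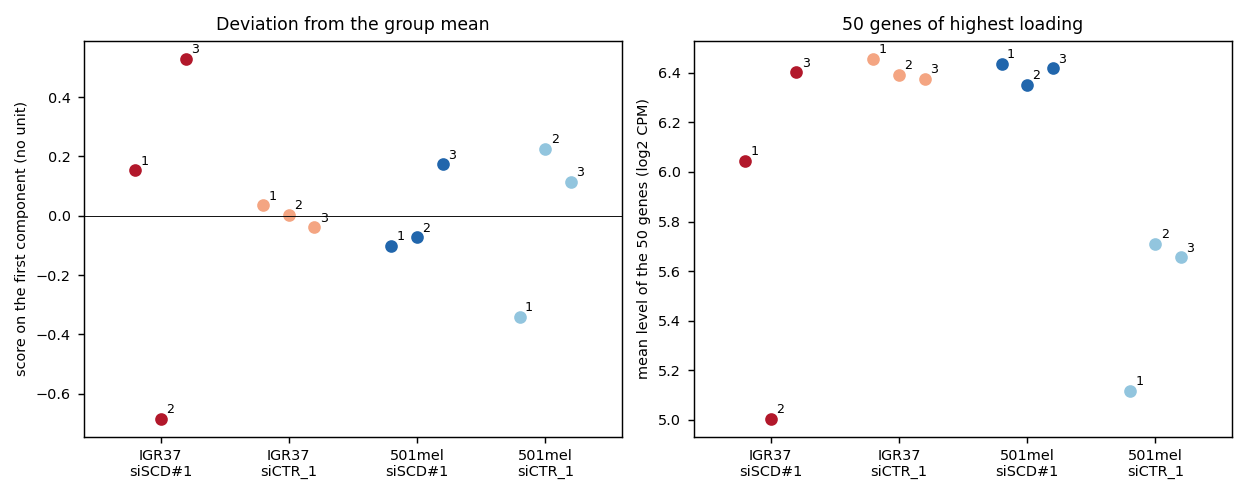
Score on the first component of the deviations from group means (left, no unit) and mean level of the 50 genes of highest loading (right, log2 CPM) in the 12 libraries, by group, with replicate numbers beside the points. IGR37 siSCD#1 replicate 2 at 5.01 and the 501mel siCTR_1 libraries at 5.12 to 5.71 lie below the other libraries, which are at 6.04 to 6.46.

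SCD, the target of the siRNA, fell in both lines. SCD stood at 7.46, 7.33 and 7.49 log2 CPM in IGR37 siSCD#1, 10.13, 10.04 and 10.10 in IGR37 siCTR_1, 6.83, 7.06 and 6.93 in 501mel siSCD#1 and 9.80, 9.81 and 9.75 in 501mel siCTR_1. Every siSCD#1 library was below every siCTR_1 library of its line. The fall was -2.67 in IGR37 and -2.85 in 501mel, and the difference of 0.18 ± 0.10 was not called (limma adjusted p = 0.213). With each library centred on its median it was 0.29 and passed (adjusted p = 0.0476).

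Over all genes, 1313 were called with a positive difference (10.0% of 13066) and 1342 with a negative one (10.3%). At least 2-fold differences were less even, at 261 positive and 588 negative. The median difference over all genes was -0.00076. Changes were also taken between every siSCD#1 library and every siCTR_1 library of the same line. Their ranges in IGR37 and in 501mel did not overlap for 2939 genes (22.5%), among them 2389 of the 2655 called in either direction (20.3%). In IGR37 alone 2181 genes rose (16.7%) and 2534 fell (19.4%). In 501mel alone 2733 rose (20.9%) and 2881 fell (22.0%). Of these, 1175 rose in both lines and 1446 fell in both, whereas 105 rose in IGR37 and fell in 501mel and 145 fell in IGR37 and rose in 501mel. Across genes, which are not independent replicates, the 2 changes had a Pearson r of 0.43.

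The counts depended on the library axis. Among the 493 genes with the highest loadings, 226 were called negative (45.8%) and 8 positive, against 441 negative (9.94%) and 1010 positive (22.8%) among the other 4437 genes above a level of 5. A library score on this axis was also set as a term in the fit, an alternative chosen after seeing the data. Unlike the score above, it kept offsets between groups. It was 0.41, 0.44 and 0.68 in 501mel siSCD#1 and -0.73, -0.16 and -0.27 in 501mel siCTR_1. In IGR37 it was 0.01, -0.82 and 0.39 with siSCD#1 and 0.05, 0.02 and -0.02 with siCTR_1. It can thus take out part of the difference between lines itself, so a call lost with it does not show that the lines responded alike. With it, 563 genes were positive and 429 negative. With IGR37 siSCD#1 replicate 2 and 501mel siCTR_1 replicate 1 both left out, the counts were 957 and 949. Centring on library medians moved the median of all differences to 0.11 and the calls to 1853 positive and 1021 negative. The part of depth or RNA quality in this axis was not tested.

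**Figure D2:**
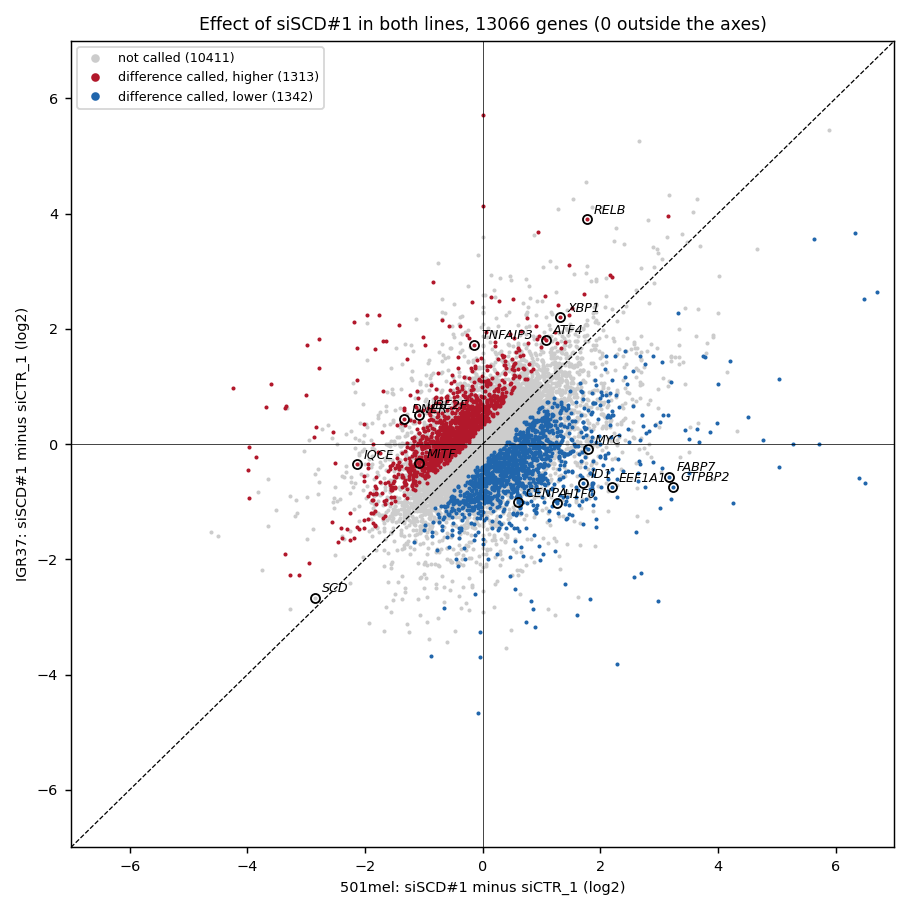
Change with siSCD#1 in IGR37 (vertical, log2) against that in 501mel (horizontal, log2) for 13066 genes, all within the axes. Genes called positive (1313, red) lie above the dashed line of equal change and genes called negative (1342, blue) below it, and SCD lies close to the line at -2.67 and -2.85.

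MITF fell less in IGR37 than in 501mel, and 18 of 32 measured pigment cell genes were called positive. MITF stood at 8.90, 8.93 and 9.0 log2 CPM in IGR37 siSCD#1, 9.29, 9.28 and 9.25 in IGR37 siCTR_1, 7.99, 7.99 and 7.96 in 501mel siSCD#1 and 9.12, 9.06 and 9.01 in 501mel siCTR_1. It fell in both lines and the groups of each line did not overlap. The change was -0.33 ± 0.06 in IGR37 (adjusted p = 0.000402) and -1.08 ± 0.06 in 501mel (adjusted p = 1.37e-09), a difference of 0.75 ± 0.08 (adjusted p = 4.52e-05). MITF lies on chromosome 3 at 69739435 to 69968337 (GRCh38, GENCODE 29, plus strand).

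In this list of MITF and pigment cell differentiation genes, 4 were negative and 10 were not called, and the median difference was 0.56. The list's median change was -0.01 in IGR37 and -0.41 in 501mel. PMEL, the melanosome fibril protein, had 11.00, 11.01 and 10.98 log2 CPM in IGR37 siSCD#1, 10.93, 10.91 and 10.97 in IGR37 siCTR_1, 9.86, 9.87 and 9.89 in 501mel siSCD#1 and 10.47, 10.41 and 10.43 in 501mel siCTR_1. The 501mel groups were well apart and the IGR37 groups differed by little. It fell by 0.56 in 501mel, and its change of 0.06 did not pass in IGR37 (difference 0.62 ± 0.08, adjusted p = 0.000127). RAB27A, the small GTPase that ties melanosomes to the cell cortex, had 7.27, 7.13 and 7.29 in IGR37 siSCD#1, 7.32, 7.19 and 7.21 in IGR37 siCTR_1, 6.02, 6.20 and 5.95 in 501mel siSCD#1 and 7.34, 7.19 and 7.16 in 501mel siCTR_1. The IGR37 groups overlapped and the 501mel groups did not, with a difference of 1.17 ± 0.12 (adjusted p = 2.88e-05).

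The receptor tyrosine kinase KIT (difference 1.06 ± 0.19, adjusted p = 0.00133) and the channel gene TRPM1 (1.04 ± 0.16, adjusted p = 0.000478) fell in both lines, by 0.85 and 0.91 in IGR37 and by 1.91 and 1.95 in 501mel. IRF4, a lineage transcription factor of melanocytes and lymphocytes, had changes of 0.01 in IGR37 and -1.09 in 501mel (difference 1.11 ± 0.18). ST3GAL6, a sialyltransferase gene, reached its difference from the other side: it rose by 1.18 in IGR37 and changed by -0.02 in 501mel (difference 1.20 ± 0.11, adjusted p = 1.19e-05). CDK2 was called as well (0.95), but its annotated span overlaps PMEL on the opposite strand by 6016 bases, and whether counting used strand is not given in the sources used here. The 4 negative members were GPM6B (-0.56), the endothelin receptor EDNRB (-0.51), the factor TFAP2A (-0.37) and the melanosomal enzyme TYRP1 (-0.31). The melanocyte factor SOX10 was not called (0.14). With the library score in the fit, 14 members were positive and 0 negative.

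**Figure D3:**
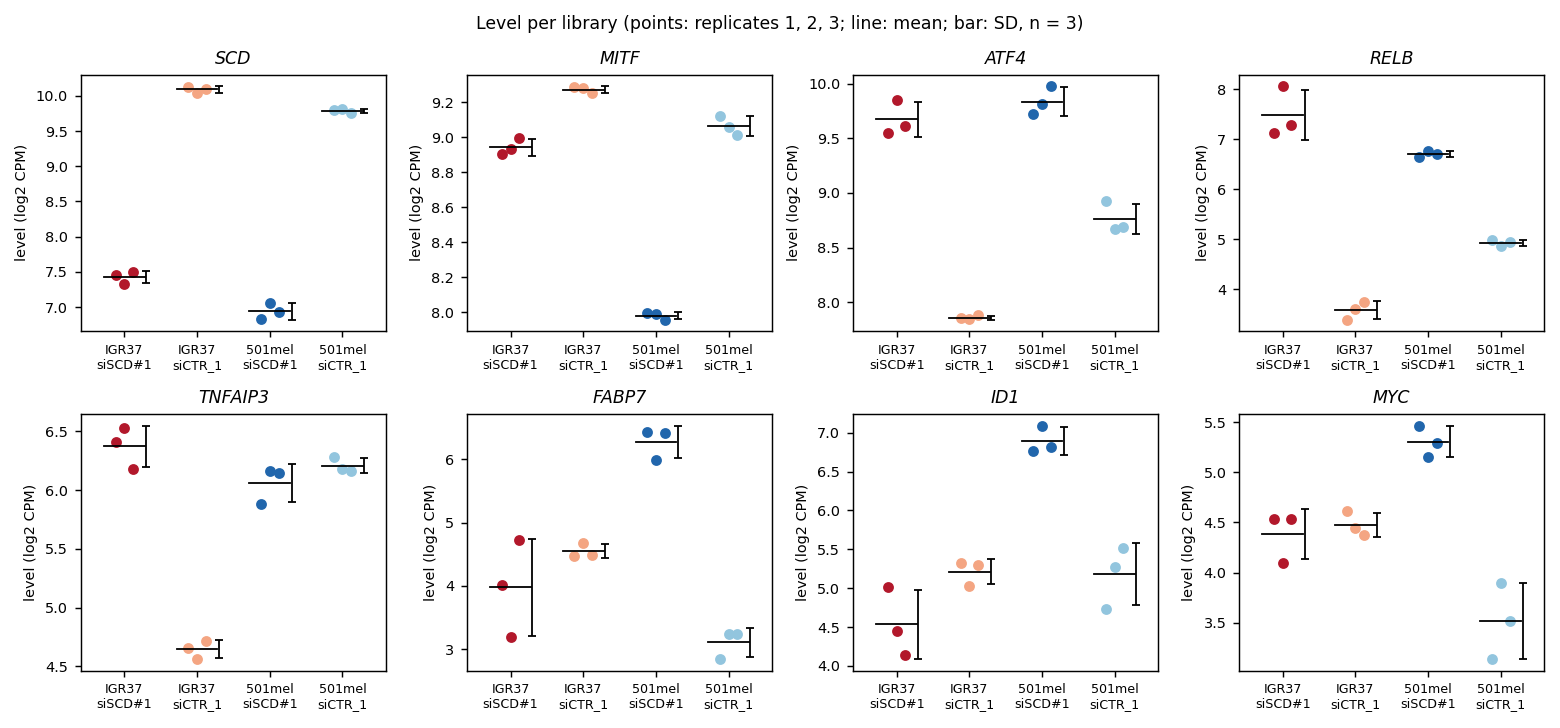
Level of 8 genes (vertical axes, log2 CPM) in the 12 libraries, with points for replicates 1 to 3, a line at the mean and a bar for the SD of each group (n = 3). SCD is low in both siSCD#1 groups, MITF lies lowest in 501mel siSCD#1, at 7.96 to 7.99, and FABP7, ID1 and MYC are highest in 501mel siSCD#1.

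MITF family factors bind E-box words, and the core CATGTG is known from promoters of pigment genes. RefSeq promoters (GRCh38.p14, 250 bases before to 50 after the start) could be matched for 25 of the 32 genes. CATGTG, on either strand, was in 9 of the 25 (36.0%), against 11.1% of all 35116 promoters in the table and 6.75% of those matched to a measured gene. Of the matched genes, 3 of the 9 genes with it were called positive (median difference 0.10), against 12 of the 16 without it (median 0.61). TYR (tyrosinase, the first enzyme of melanin synthesis) and TYRP1 both carry 2 copies, in capitals below, and are shown because their differences were opposite in sign, at 0.58 ± 0.12 for TYR (adjusted p = 0.00393) and -0.31 ± 0.10 for TYRP1 (adjusted p = 0.0315). The TYR window is chr11:89177625-89177924 and the TYRP1 window is chr9:12693135-12693434, both on the plus strand and written 5′ to 3′.
TYR promoter: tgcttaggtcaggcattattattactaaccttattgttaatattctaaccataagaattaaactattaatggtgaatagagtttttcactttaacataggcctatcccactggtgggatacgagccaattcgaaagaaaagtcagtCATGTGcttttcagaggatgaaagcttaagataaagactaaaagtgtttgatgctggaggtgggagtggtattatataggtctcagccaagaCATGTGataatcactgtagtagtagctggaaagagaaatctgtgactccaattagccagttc
TYRP1 promoter: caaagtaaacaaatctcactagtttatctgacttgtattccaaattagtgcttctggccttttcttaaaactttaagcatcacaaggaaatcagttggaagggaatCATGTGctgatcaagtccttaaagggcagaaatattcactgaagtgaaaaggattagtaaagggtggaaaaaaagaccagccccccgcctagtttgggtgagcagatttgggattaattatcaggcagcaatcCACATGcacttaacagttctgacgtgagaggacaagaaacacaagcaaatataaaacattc

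Most genes of mitosis had a negative difference, that is, a change more downward in IGR37. Of 31 measured G2 and mitosis genes, 20 were called negative and 0 positive (median difference -0.58), with a median change of -0.99 in IGR37 and -0.40 in 501mel. Over all genes 10.3% were called negative, and at an unadjusted p below 0.05 the list held 22 negative and 0 positive members (limma). CENPA, the centromeric histone, stood at 4.73, 4.76 and 5.01 log2 CPM in IGR37 siSCD#1, 5.93, 5.86 and 5.73 in IGR37 siCTR_1, 5.92, 5.65 and 5.84 in 501mel siSCD#1 and 4.72, 5.51 and 5.38 in 501mel siCTR_1. It fell in IGR37 and rose in 501mel, where replicate 1 of the control was lowest (difference -1.61 ± 0.23, adjusted p = 0.000318).

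The checkpoint kinase gene BUB1B stood at 4.79, 4.72 and 5.13 in IGR37 siSCD#1, 5.95, 5.98 and 6.0 in IGR37 siCTR_1, 5.62, 5.33 and 5.68 in 501mel siSCD#1 and 5.38, 5.46 and 5.40 in 501mel siCTR_1. The IGR37 groups lay apart and the 501mel groups overlapped (difference -1.23 ± 0.17, adjusted p = 0.000216). CDK1, the kinase that drives entry into mitosis, fell in both lines, by 1.19 in IGR37 and by 0.46 in 501mel (difference -0.73 ± 0.12, adjusted p = 0.001). Its partner cyclin gene CCNB1 had a difference of -0.68 ± 0.11, and the spindle protein gene NUSAP1 one of -0.78 ± 0.11. AURKA and AURKB, the Aurora kinases, were not called (0.02 and 0.19), with falls of 1.00 and 0.70 in IGR37 and of 1.02 and 0.89 in 501mel. With the library score in the fit 14 members were negative, and without the 2 libraries named above 16. The 3' untranslated regions of these genes had a median GC content of 36.3%, against 42.5% over all genes. Of the 29 members with a GC value, 16 were negative after adjustment for GC.

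Of 35 measured genes of DNA replication, 13 were called negative and 2 positive (median -0.43), with a median change of -1.03 in IGR37 and -0.50 in 501mel. ORC6, a subunit of the origin recognition complex, fell by 1.49 in IGR37 and by 0.36 in 501mel (difference -1.13 ± 0.17, adjusted p = 0.000391). The helicase subunit gene MCM2 fell by 0.93 in IGR37 and had a change of -0.19 in 501mel that did not pass, and MCM4 fell by 1.36 in IGR37 and by 0.74 in 501mel (differences -0.73 ± 0.12 and -0.61 ± 0.11). The 2 positive members were GINS1, which fell by 2.28 in IGR37 and by 3.11 in 501mel, and the G1 cyclin gene CCNE1, which fell by 1.16 in IGR37 and by 1.84 in 501mel. With the library score in the fit 10 members were negative and 0 positive, so both of these calls were lost.

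Genes of lipid synthesis had negative differences or were not called. Of 24 measured genes of fatty acid synthesis and desaturation, 8 were called negative and 0 positive (median -0.24), with a median change of -0.18 in IGR37 and 0.24 in 501mel. ACLY, which makes cytosolic acetyl-CoA, had 8.21, 8.05 and 8.25 log2 CPM in IGR37 siSCD#1, 8.34, 8.30 and 8.29 in IGR37 siCTR_1, 8.43, 8.54 and 8.63 in 501mel siSCD#1 and 7.93, 8.08 and 8.06 in 501mel siCTR_1. All 501mel siSCD#1 libraries were above their controls, and the IGR37 change of -0.14 did not pass (difference -0.65 ± 0.11, adjusted p = 0.000706).

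FADS1, the delta-5 desaturase, had 5.66, 5.71 and 5.67 in IGR37 siSCD#1, 6.24, 6.33 and 6.28 in IGR37 siCTR_1, 7.20, 7.12 and 7.38 in 501mel siSCD#1 and 7.29, 7.22 and 7.16 in 501mel siCTR_1. It fell in IGR37 and its 501mel groups overlapped (difference -0.62 ± 0.11, adjusted p = 0.00171). FASN (0.36), ACACA (-0.14) and the elongase gene ELOVL6 (-0.18) were not called. The call of ELOVL5 (-0.42) was lost with median centring (-0.32, adjusted p = 0.0512), and with the library score in the fit only 2 members of the list were called.

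Of 25 measured genes of cholesterol synthesis and uptake, 10 were called negative and 0 positive (median -0.22), with a median change of -0.19 in IGR37 and 0.24 in 501mel. The shares of all genes were 10.3% negative and 10.0% positive, and 13.5% and 20.6% above a level of 5. IDI1, the isopentenyl diphosphate isomerase, had 5.21, 4.86 and 5.43 in IGR37 siSCD#1, 6.01, 5.85 and 5.84 in IGR37 siCTR_1, 6.10, 5.88 and 6.13 in 501mel siSCD#1 and 4.76, 5.34 and 5.32 in 501mel siCTR_1. It fell in IGR37 and rose in 501mel, with no overlap in either line (difference -1.63 ± 0.22, adjusted p = 0.000215). ACAT2, which makes acetoacetyl-CoA, moved likewise (-0.44 in IGR37, 0.39 in 501mel, difference -0.83 ± 0.11). INSIG1, which holds back SREBP processing, rose by 0.77 in 501mel and changed by 0.01 in IGR37 (difference -0.76 ± 0.11, adjusted p = 0.000319). With the library score in the fit 4 members were negative, and 8 without the 2 libraries.

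ATF4 rose in both lines and more in IGR37. ATF4 stood at 9.55, 9.85 and 9.61 log2 CPM in IGR37 siSCD#1, 7.85, 7.85 and 7.88 in IGR37 siCTR_1, 9.72, 9.81 and 9.98 in 501mel siSCD#1 and 8.92, 8.67 and 8.69 in 501mel siCTR_1. The siSCD#1 groups of both lines reached overlapping levels, and the control of IGR37 was below that of 501mel. The difference was 0.74 ± 0.13 (adjusted p = 0.00112), and 0.40 after quantile normalisation (adjusted p = 0.0345).

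In the PERK-ATF4 list of 35 measured genes, 8 were called positive and 4 negative (median 0.26), with a median change of 1.53 in IGR37 and 1.26 in 501mel. Of all genes above a level of 5, 20.6% were called positive and 13.5% negative, close to the shares in this list. TRIB3, a pseudokinase and ATF4 target, had 8.88, 9.0 and 8.90 in IGR37 siSCD#1, 6.40, 6.26 and 6.32 in IGR37 siCTR_1, 9.02, 9.10 and 8.95 in 501mel siSCD#1 and 7.50, 7.19 and 7.20 in 501mel siCTR_1. As with ATF4, the levels with siSCD#1 overlapped between lines and the IGR37 controls were lower (difference 0.88 ± 0.12, adjusted p = 0.000191). The amino acid transporter gene SLC38A2 rose by 1.87 in IGR37 and by 0.96 in 501mel (difference 0.91 ± 0.12). SLC7A5, which imports large neutral amino acids, rose by 0.39 in IGR37 and fell by 0.46 in 501mel (difference 0.85 ± 0.14, adjusted p = 0.000702, and 0.50 with the library score). DDIT3, ASNS and CHAC1 were not called, with differences of 0.26, 0.07 and 0.45. The mTORC1 inhibitor gene DDIT4 was negative, and rose by 1.53 in IGR37 and by 2.24 in 501mel (difference -0.71 ± 0.14, adjusted p = 0.00208).

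The IRE1 and ATF6 arms held differences of both signs. Of 26 measured genes 2 were called positive and 8 negative, with a median of 0.14 (-0.03 after quantile normalisation) and a mean of -0.11. XBP1, the factor that IRE1 activates by splicing, stood at 8.43, 8.41 and 8.40 in IGR37 siSCD#1, 6.28, 6.19 and 6.15 in IGR37 siCTR_1, 8.87, 8.99 and 8.99 in 501mel siSCD#1 and 7.48, 7.74 and 7.69 in 501mel siCTR_1. It rose in both lines and more in IGR37 (difference 0.89 ± 0.11, adjusted p = 8.2e-05). The disulfide isomerase gene PDIA4 rose by 0.93 in 501mel and changed by 0.03 in IGR37 (difference -0.90 ± 0.10, adjusted p = 4.98e-05), and the chaperone gene HSP90B1 rose by 0.84 in 501mel and changed by 0.06 in IGR37 (-0.78 ± 0.15). The chaperone gene HSPA5 was not called (0.26). Adding the library score left 2 members positive and 3 negative, and the HSP90B1 call was lost (-0.38, adjusted p = 0.0511).

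NRF2 targets, which serve glutathione and thioredoxin metabolism, were positive in 10 and negative in 2 of 21 measured genes (median 0.32). The list's median change was 0.46 in IGR37 and 0.55 in 501mel, in the order opposite to the sign of the median difference. HMOX1, heme oxygenase 1, had 7.52, 7.76 and 7.37 in IGR37 siSCD#1, 6.39, 6.65 and 6.32 in IGR37 siCTR_1, 6.34, 6.07 and 6.15 in 501mel siSCD#1 and 6.33, 6.03 and 6.20 in 501mel siCTR_1. It rose by 1.10 in IGR37, while the 501mel groups overlapped (difference 1.10 ± 0.17, adjusted p = 0.000443). GCLM, the modifier subunit of the first enzyme of glutathione synthesis, rose by 1.41 in IGR37 and by 0.55 in 501mel (difference 0.86 ± 0.13). Its catalytic partner gene GCLC was negative (-0.78), as was the thioredoxin gene TXN (-1.41), which is among the 50 genes of highest loading on the library axis. The fit with the library score gave 7 positive and 0 negative members, so both of these calls were lost.

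Of 29 autophagy and lysosome genes 10 were positive and 2 negative (median 0.25), against 20.6% and 13.5% of all genes above a level of 5. GABARAPL1, an autophagosome protein of the ATG8 family, had 7.87, 8.14 and 8.09 in IGR37 siSCD#1, 6.26, 6.02 and 6.09 in IGR37 siCTR_1, 7.11, 7.01 and 7.12 in 501mel siSCD#1 and 6.71, 6.51 and 6.60 in 501mel siCTR_1. It rose in both lines, with the 4 groups apart from one another (difference 1.44 ± 0.13, adjusted p = 1.02e-05). ATG3, the enzyme that attaches lipid to ATG8 proteins, was negative (-0.89 ± 0.17), and its call was lost with the library score in the fit (-0.65, adjusted p = 0.0734), where 5 members were positive and 0 negative.

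Among NF-kB and inflammatory genes the subunits and inhibitors that passed were positive and the chemokines that passed were negative. Of 24 measured genes 5 were called positive and 3 negative, with a median of -0.01 that changed sign with median centring (0.10) and several other alternatives. Shares over all genes were 10.0% positive and 10.3% negative, and above a level of 5 they were 20.6% and 13.5%. RELB, a subunit of the non-canonical pathway, stood at 7.12, 8.06 and 7.27 log2 CPM in IGR37 siSCD#1, 3.39, 3.61 and 3.74 in IGR37 siCTR_1, 6.64, 6.76 and 6.70 in 501mel siSCD#1 and 4.98, 4.86 and 4.94 in 501mel siCTR_1. It rose in both lines, by 3.91 in IGR37 and by 1.77 in 501mel, and the groups were apart (difference 2.13 ± 0.25, adjusted p = 6.8e-05). TNFAIP3 (A20), an inhibitor of the pathway, had 6.41, 6.53 and 6.18 in IGR37 siSCD#1, 4.66, 4.56 and 4.72 in IGR37 siCTR_1, 5.88, 6.16 and 6.14 in 501mel siSCD#1 and 6.28, 6.18 and 6.16 in 501mel siCTR_1. It rose by 1.73 in IGR37, and its change of -0.15 in 501mel did not pass (difference 1.87 ± 0.15, adjusted p = 6.22e-06).

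RELA (0.94), NFKBIA (0.38) and PTGS2 (1.64) were the other positive members. Only RELB and TNFAIP3 were positive once the library score was in the fit, and 2 members were negative. The neutrophil chemokine gene CXCL8 stood at 5.15, 5.26 and 5.95 in IGR37 siSCD#1, 1.68, 2.19 and 1.82 in IGR37 siCTR_1, 6.38, 5.94 and 6.50 in 501mel siSCD#1 and 0.38, 0.93 and 0.62 in 501mel siCTR_1. It rose in both lines, by 3.55 in IGR37 and by 5.63 in 501mel (difference -2.07 ± 0.34, adjusted p = 0.000846). The CXCL8 levels of 0.38, 0.93 and 0.62 in 501mel siCTR_1 were low, so its rise in 501mel starts from few reads. CXCL1 and CCL20, the other negative members, rest on few reads in 501mel controls as well. CXCL1 had 323 reads in IGR37 siSCD#1, 245 in IGR37 siCTR_1, 72 in 501mel siSCD#1 and 5 in 501mel siCTR_1. CCL20 had 167 in IGR37 siSCD#1, 229 in IGR37 siCTR_1, 28 in 501mel siSCD#1 and 1 in 501mel siCTR_1. These reads are summed over the libraries of a group and not scaled to depth (2402788 to 7483010 gene reads a library), so they do not give changes.

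Among MAPK outputs 6 of 23 were positive and 4 negative (median 0.33), and among AP-1 factors 3 of 15 were positive and 0 negative (median 0.37). Above a level of 5, 20.6% of all genes were positive and 13.5% negative, against 10.0% and 10.3% at any level. JUN, an AP-1 subunit, rose by 2.94 in IGR37 and by 2.16 in 501mel (difference 0.78 ± 0.17, adjusted p = 0.00481). MYC, a driver of growth genes, stood at 4.53, 4.10 and 4.53 in IGR37 siSCD#1, 4.61, 4.44 and 4.37 in IGR37 siCTR_1, 5.47, 5.15 and 5.30 in 501mel siSCD#1 and 3.14, 3.90 and 3.51 in 501mel siCTR_1. It rose in 501mel by 1.79, and the IGR37 groups overlapped (difference -1.88 ± 0.26, adjusted p = 0.000234). GADD45B, a growth arrest gene listed with p53 targets, rose by 0.58 in IGR37 and by 2.20 in 501mel (difference -1.62 ± 0.15, adjusted p = 1.44e-05), in a list of 21 genes with 3 negative and 0 positive. Among 29 interferon response genes 2 were positive and 5 negative. ISG20, an exonuclease, rose by 1.35 in IGR37 and changed by 0.07 in 501mel (difference 1.28 ± 0.11), and STAT2 rose by 0.95 in IGR37 and changed by -0.16 in 501mel (1.11 ± 0.15).

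Several genes of glucose uptake and use fell in 501mel and did not pass in IGR37. Of 29 hypoxia and glycolysis genes 9 were positive and 5 negative (median 0.23), with a median change of -0.05 in IGR37 and -0.45 in 501mel. PFKFB3, which makes the activator of phosphofructokinase, had 6.68, 6.75 and 6.55 in IGR37 siSCD#1, 6.53, 6.53 and 6.52 in IGR37 siCTR_1, 5.41, 5.61 and 5.46 in 501mel siSCD#1 and 6.40, 6.40 and 6.30 in 501mel siCTR_1. It fell by 0.87 in 501mel, and its change of 0.13 in IGR37 did not pass (difference 1.01 ± 0.12, adjusted p = 7.17e-05). The glucose transporter genes SLC2A1 and SLC2A3 fell by 0.65 and 0.96 in 501mel and changed by 0.22 and -0.05 in IGR37 (differences 0.87 ± 0.12 and 0.91 ± 0.16). Cytosolic ribosomal protein genes were positive in 12 and negative in 2 of 32 (median 0.17, and -0.06 after quantile normalisation), and many have processed pseudogenes that counting could split from them. Heat shock genes were positive in 5 and negative in 1 of 19 (median 0.24). For the lists of this paragraph, the matching shares of all genes above a level of 5 were 20.6% positive and 13.5% negative. Once the library score was added, the counts were 5 positive and 0 negative for hypoxia and glycolysis, 4 and 1 for ribosomal proteins and 2 and 0 for heat shock.

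In the remaining lists the calls are given beside the 20.3% called in either direction over all genes. Genes of oxidative phosphorylation were positive in 3 and negative in 4 of 30, those of the mTORC1, PI3-kinase and FOXO axis in 6 and 3 of 28, of lipid droplets and fatty acid oxidation in 5 and 1 of 30, and LXR targets in 2 and 4 of 11, or 1 and 1 with the library score in the fit. YAP-TEAD targets were positive in 1 and negative in 2 of 18, genes of ID proteins and the BMP-SMAD axis in 1 and 3 of 15, and genes of the dedifferentiated, invasive state in 2 and 4 of 25. In the last of these, FN1 (fibronectin) rose by 0.71 in IGR37 and fell by 0.48 in 501mel (difference 1.19 ± 0.12, adjusted p = 2.08e-05), and VIM (vimentin) rose by 0.79 in 501mel and changed by -0.08 in IGR37 (-0.87 ± 0.15, and -0.43 with the library score). IRS2, the adaptor of insulin signalling, rose by 1.30 in IGR37 and by 0.50 in 501mel (difference 0.80 ± 0.10), while the PI3-kinase subunit gene PIK3R3 fell by 1.29 in IGR37 and changed by -0.10 in 501mel (-1.19 ± 0.16, adjusted p = 0.000173). AXL, the receptor kinase that marks the dedifferentiated state, was low in all groups, at 0.67 ± 0.77 in IGR37 siSCD#1, 1.55 ± 0.26 in IGR37 siCTR_1, 1.71 ± 0.71 in 501mel siSCD#1 and 1.10 ± 0.91 in 501mel siCTR_1, and was not called (-1.49 ± 0.73, adjusted p = 0.170).

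**Figure D4:**
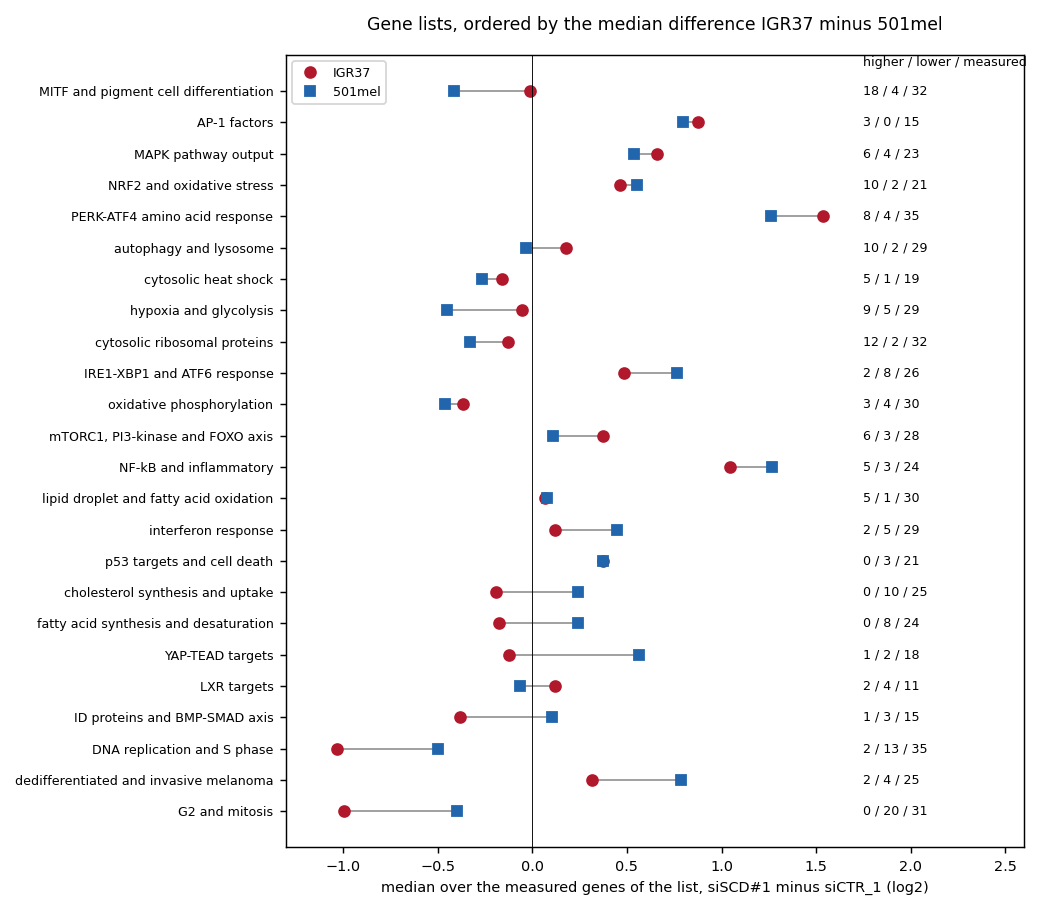
Median change with siSCD#1 (horizontal, log2) over the measured genes of each list in IGR37 (red circles) and 501mel (blue squares), ordered by the median difference, with the numbers called positive and negative and the number measured at the right. MITF and pigment genes lie at -0.01 in IGR37 and -0.41 in 501mel, and G2 and mitosis genes at -0.99 and -0.40.

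Of the 12 largest positive differences among well measured genes, 9 were of genes that fell in 501mel. They were RELB, TNFAIP3, IQCE, DNER, SLC37A2, PPM1K, ST3GAL1, UBE2F, APOLD1, TRPS1, RAB12 and C11orf96, from 2.13 down to 1.53. IQCE had 6.87, 6.88 and 6.79 log2 CPM in IGR37 siSCD#1, 7.23, 7.09 and 7.28 in IGR37 siCTR_1, 6.22, 6.04 and 5.92 in 501mel siSCD#1 and 8.28, 8.15 and 8.18 in 501mel siCTR_1. It fell in both lines, by 0.35 in IGR37 and by 2.14 in 501mel (difference 1.79 ± 0.12, adjusted p = 1.15e-06). APOLD1 fell by 1.74 in 501mel and changed by -0.15 in IGR37 (difference 1.59 ± 0.11, adjusted p = 1.15e-06). TRPS1, a repressor of the GATA family, had 4.66, 4.65 and 4.78 in IGR37 siSCD#1, 2.62, 3.11 and 3.06 in IGR37 siCTR_1, 5.57, 5.67 and 5.55 in 501mel siSCD#1 and 5.38, 5.45 and 5.34 in 501mel siCTR_1. It rose by 1.77 in IGR37, and its change of 0.21 in 501mel did not pass.

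The 12 largest negative differences were GTPBP2, FABP7, ATXN2L, RABGGTB, EEF1A1, CERS2, PPP4C, KAT2B, TMEM251, ID1, CC2D1B and H1F0, from -3.97 to -2.28, and all 12 genes rose in 501mel, whose siCTR_1 libraries were low on the library axis. GTPBP2 had 4.62, 2.15 and 5.95 log2 CPM in IGR37 siSCD#1, 5.14, 5.0 and 4.80 in IGR37 siCTR_1, 7.34, 7.08 and 7.13 in 501mel siSCD#1 and 3.05, 4.16 and 4.63 in 501mel siCTR_1. The IGR37 siSCD#1 libraries spread on both sides of their controls. Its difference of -3.97 ± 0.88 (adjusted p = 0.00539) was -2.48 without IGR37 siSCD#1 replicate 2 and 501mel siCTR_1 replicate 1, and -0.99 with the library score in the fit (adjusted p = 0.144). RABGGTB (-3.20 and -1.23 with the score) and CC2D1B (-2.29 and -0.69) lost their calls likewise.

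FABP7, ID1 and H1F0 kept their calls with the score in the fit. FABP7, the brain-type fatty acid-binding protein, had 4.01, 3.20 and 4.73 in IGR37 siSCD#1, 4.48, 4.68 and 4.49 in IGR37 siCTR_1, 6.44, 5.99 and 6.42 in 501mel siSCD#1 and 2.85, 3.25 and 3.24 in 501mel siCTR_1. It rose by 3.17 in 501mel, and the IGR37 groups overlapped (difference -3.73 ± 0.38, adjusted p = 2.64e-05, and -2.57 with the score, adjusted p = 8.2e-05). ID1, an inhibitor of basic helix-loop-helix factors, had 5.02, 4.45 and 4.14 in IGR37 siSCD#1, 5.32, 5.02 and 5.29 in IGR37 siCTR_1, 6.76, 7.09 and 6.82 in 501mel siSCD#1 and 4.74, 5.28 and 5.52 in 501mel siCTR_1. It fell by 0.68 in IGR37 and rose by 1.71 in 501mel, and the difference of -2.39 ± 0.29 (adjusted p = 8.54e-05) was -2.26 with the score. H1F0, a linker histone, fell by 1.02 in IGR37 and rose by 1.26 in 501mel (-2.28 ± 0.28, adjusted p = 8.2e-05, and -1.77 with the score). EEF1A1, the elongation factor, had a difference of -2.94 ± 0.32, and its many processed pseudogenes make its count uncertain.

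Genes called in opposite directions in the 2 lines, with a level of at least 2 in each, numbered 93 for a rise in IGR37 with a fall in 501mel and 110 for the reverse. The largest of the first kind were DNER (0.44 in IGR37 and -1.33 in 501mel), PPM1K (1.20 and -0.51), UBE2F (0.51 and -1.09), C11orf96 (0.67 and -0.86) and CCDC130 (0.81 and -0.70). The largest of the second kind were EEF1A1, PPP4C (-0.80 and 1.84), TMEM251 (-0.99 and 1.41), ID1 and H1F0. The difference of PPP4C was -1.44 with the library score and -2.64 without it, and that of TMEM251 was -1.42 with it and -2.40 without it. CCDC130 lost its call with the library score in the fit (1.51 against 0.49, adjusted p = 0.307).

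An siRNA can also act on transcripts that match it in part, mostly in 3' untranslated regions. The word GCTTCCT had been picked out earlier in these same libraries as one whose genes fell with siSCD#1, so its shares are a description. The sequence of siSCD#1 is not given in the sources used here, so whether the word matches it is unknown. Of genes whose level reached the median of all, the 1174 with the word in their longest annotated 3' untranslated region (GENCODE 29) had a median change of -0.11 in IGR37 and -0.21 in 501mel. The 5058 without it had -0.04 in IGR37 and -0.06 in 501mel. Of those with the word, 22.2% were called positive and 9.11% negative, against 16.3% and 14.7% of those without. Regions with the word were longer (median of 2880 bases, against 1158), and in 3 classes of length, short to long, the median difference was 0.22, 0.18 and 0.10 with the word and 0.11, 0.03 and 0.0050 without it. Of the 12 genes of largest positive difference, UBE2F and RAB12 held it, and of the 12 of largest negative difference, ID1 and CC2D1B. Among all genes at or above the median level with a sequence, 1174 of 6232 held it. The target SCD held it too. The sites of MITF, UBE2F and RAB12 are shown, at chr3:69965272-69965296 (MITF), chr2:238042624-238042648 and chr2:238042753-238042777 (UBE2F), and chr18:8638879-8638903 (RAB12), all on the plus strand of GRCh38. They are written 5′ to 3′ as DNA, with the word in capitals, and were chosen as those of MITF and of the genes of largest positive difference that hold it. Whether the siRNA acts on these sites was not tested.
MITF site: gcacaaactGCTTCCTttcttgatt
UBE2F site 1: taactgccaGCTTCCTtagacctct
UBE2F site 2: gtaggccttGCTTCCTctttgcacc
RAB12 site: tctctcatgGCTTCCTaagggatgt

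The difference also moved with base composition. Over 6098 genes at or above the median level with a region of at least 100 bases, the median difference over 5 equal classes was -0.17 in that of lowest GC content (median 32.6%), then -0.03, 0.04 and 0.15, and 0.27 in that of highest (58.4%). The lowest class held 24.8% negative and 8.69% positive calls and the highest 3.77% and 25.4%. The change in IGR37 ran from -0.01 to -0.03 over the same classes and that in 501mel from 0.15 to -0.30. After adjustment of each library for GC content, chosen after seeing the data, 1113 genes were positive and 1207 negative of 11420, and MITF had a difference of 0.88.

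The second siRNA and the inhibitor share no library with this comparison, but their table was normalised separately, so values are set side by side without a test between tables. Both gave MITF a difference of the opposite sign: -0.78 ± 0.11 with siSCD#2 (adjusted p = 1.88e-05) and -0.89 ± 0.11 with the inhibitor (adjusted p = 1.78e-06). The pigment list had a median of 0.56 with siSCD#1, -0.23 with siSCD#2 and -0.47 with the inhibitor. The median of the G2 and mitosis genes was negative under all 3 treatments, at -0.58, -0.60 and -0.41. Cholesterol genes were at -0.22 with siSCD#1, 0.40 with siSCD#2 and -0.32 with the inhibitor. For SCD itself the differences were 0.18 with siSCD#1, 0.18 with siSCD#2 and 0.33 with the inhibitor, none of them called.

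With siSCD#2, 1553 genes were positive (11.6% of 13364) and 1266 negative (9.47%), and with the inhibitor 1642 (12.3%) and 2049 (15.3%). Of 1311 positive genes with siSCD#1 measured in both tables, 323 were positive with siSCD#2, which is 24.6% of the siSCD#1 list and 21.0% of the siSCD#2 list, against 11.9% of all shared genes positive with siSCD#2. Of 1333 negative genes 164 were negative with siSCD#2 (12.3%, against 9.73% of all), and 155 were positive (11.6%). Of the positive genes 120 were negative with siSCD#2 (9.15%). With the inhibitor 273 positive genes were shared (20.8% of the siSCD#1 list and 16.8% of the inhibitor list) and 340 negative ones (25.5% and 16.7%), while 280 genes positive with siSCD#1 were negative with the inhibitor. Over 12896 genes the Pearson r of the differences was 0.09 with siSCD#2 and 0.08 with the inhibitor. RELB was positive with the inhibitor (3.48 ± 0.28) and not called with siSCD#2 (0.25), APOLD1 was positive with siSCD#2 (1.94 ± 0.12) and negative with the inhibitor (-0.50 ± 0.12), and ID1 was negative with the inhibitor (-1.93 ± 0.21) and positive with siSCD#2 (0.68 ± 0.21). GABARAPL1 was positive under all 3, at 1.44, 1.35 and 1.21.

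**Figure D5:**
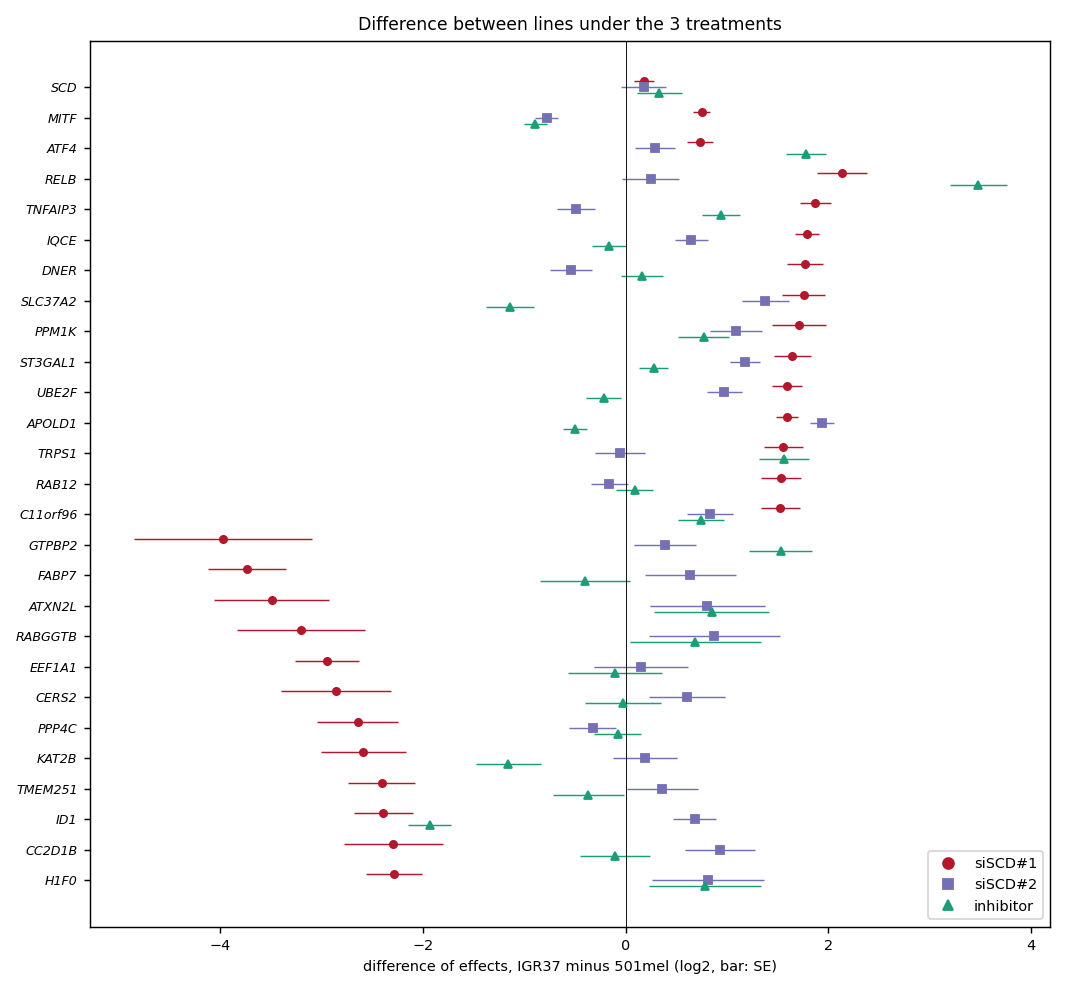
Difference of effects, IGR37 minus 501mel (horizontal, log2, bars are SE), for SCD, MITF, ATF4 and the 24 genes of largest difference, with siSCD#1 (circles), siSCD#2 (squares) and the inhibitor (triangles). MITF lies at 0.75 with siSCD#1 and at -0.78 and -0.89 with the other 2 treatments, and of the 12 genes of largest negative difference with siSCD#1 all but PPP4C (-0.33) lie above 0 with siSCD#2.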

How the data were processed

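The values analysed were 3' tag RNA-seq levels, deposited by the authors as log2 CPM with a small prior count, in 1 table of 12 libraries for siSCD#1 and a second of 24 libraries, normalised separately. The submitters' processing notes name STAR, edgeR and hg38, without versions. Whole reads could be recovered from the deposited log2 values, which gave the depth of 2402788 to 7483010 gene reads a library and an alternative run with voom. Spike-in rows (3.76% to 5.71% of reads) were dropped. Each table was fitted with limma 3.58.1 in R 4.3.3 (1 coefficient a group, variance trend), and p-values were adjusted by Benjamini-Hochberg over all genes of the table. The fit was tested on simulated data, with 67 genes changed by 0.5, 67 by 1 and 66 by 2 (log2). Of these, 34.3%, 95.5% and 100% were recovered, and 5.56% of calls were false. The simulation used 1 dispersion (0.0035). The libraries here also deviated along a common axis, with 43.3% of the deviation variance. The simulated shares, that of false calls included, therefore need not hold for the calls reported here.

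Named genes were SCD, MITF, ATF4 and AXL, the 12 largest called differences in each direction at a level of at least 2 in each line, the 5 largest with opposite calls and the 3 smallest adjusted p in each list, and other members were chosen after their values were seen. Members and lists were chosen with earlier results of these data known. Replicate numbers did not pair the libraries (4 of 18 correlations of same-numbered deviations were above 0.1, range -0.45 to 0.30). No 2 replicates agreed within sampling noise. Alternatives are given at the end. Sequences came from RefSeq promoters (GRCh38.p14) and GENCODE 29 untranslated regions on the authors' build. Some genes of the lists are not reported here.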

Additional observations from a re-analysis of the deposited data

Results flagged for a closer look

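The effect of siSCD#1 differed between the lines by the test of the difference itself (limma adjusted p below 0.05) in 1313 genes with a positive and 1342 with a negative difference. Among genes named above, MITF had a difference of 0.75. Called in opposite directions in the 2 lines were DNER (1.77), PPM1K (1.71), UBE2F (1.59), C11orf96 (1.53) and CCDC130 (1.51), with a rise in IGR37, and EEF1A1 (-2.94), PPP4C (-2.64), TMEM251 (-2.40), ID1 (-2.39) and H1F0 (-2.28), with a fall in IGR37.

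Spike-in RNAs, which the comparison did not use, also differed between siSCD#1 and siCTR_1 libraries. ERCC-00002 was higher with siSCD#1 by 0.89 in IGR37 and by 0.85 in 501mel (log2), and ERCC-00130 was at -1.86 in IGR37 and -1.92 in 501mel. The cause was not tested.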

How the results depend on the processing

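No named gene changed direction under the alternatives run. The near even balance of calls turned with median centring (1853 positive, 1021 negative), spike-in centring, the library score and the replicate block. It also turned without any single library of 501mel siSCD#1 or IGR37 siCTR_1. The same held without IGR37 siSCD#1 replicate 2, alone or together with 501mel siCTR_1 replicate 1. GC adjustment turned it within both lines (2279 rises and 2183 falls in IGR37, 2749 and 2291 in 501mel). The median of the NF-kB, interferon, p53, oxidative phosphorylation, ribosomal, lipid droplet and IRE1-ATF6 lists changed sign under at least 1 alternative. Centred on spike-ins, 526 genes were positive and 429 negative with siSCD#1, 419 and 187 with siSCD#2, and 239 and 2180 with the inhibitor. With the library score in the fit, 563 were positive and 429 negative, and 1531 rose in 501mel. At an absolute difference of at least 1, there were 261 and 588, and SCD passed only with median centring (0.29). Of 95 named genes, the score cost 21 their call, spike-in centring 18, and GC adjustment and leaving out 2 libraries 3 each. ATF4, RPL5 and RPL30 were not in the fit adjusted for GC, so their calls were not checked by it. Leaving out 1 library at a time gave 930 to 1490 positive and 932 to 1532 negative genes, 1800 to 2199 rises and 2070 to 2552 falls in IGR37, 2267 to 2958 rises and 2458 to 3059 falls in 501mel, and a difference of 0.13 to 0.24 for SCD and 0.72 to 0.78 for MITF. Quantile normalisation gave 1111 and 1262, voom 1414 and 1456, no variance trend 929 and 971. With the replicate number as a block, which does not pair the libraries, the counts were 1255 and 1249. The causes of these shifts were not tested. Depth limits genes near the floor: 170 of 2655 called genes had a level under 2 in one line.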
